A study of Drosophila melanogaster with 3 samples.

Results

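The regions described here are ChIP-seq peaks of the transcription factor Bab1 whose summit lay at the promoter of a long non-coding RNA gene and away from every protein-coding promoter. A pooled peak was taken when its summit was at most 1000 bp upstream or 100 bp downstream of the transcription start site (TSS) of a gene whose symbol starts with lncRNA: or asRNA: (antisense RNA), and when no protein-coding TSS lay within 1000 bp of the summit. The rule was first applied to the list of peaks kept by the authors' irreproducible discovery rate (IDR) procedure, which asks whether replicates rank a peak alike. It found 87 of the 6896 peaks there, under the 200 needed, so the list called on the pooled replicates was used. That list gave 443 of 30000 peaks, and the 87 are among them, because the IDR peaks are the 6896 strongest peaks of the pooled list.

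Per the labels, the flies were adult females of unknown age from 1 transgenic line of Drosophila melanogaster, labelled bab1-RA (bab1-s)-GFP, with GFP joined to the C-terminal end of Bab1. Whole animals were used, chromatin was sheared by sonication to fragments of 200 to 800 bp, and the immunoprecipitation used an antibody against GFP. There was 1 group of 3 biological replicates, and nothing in the labels says whether they came from separate cultures, so a spread between replicates describes these 3 samples. No library of untagged flies and no RNA measurement was used here: a peak is enrichment in this immunoprecipitation, and whether the neighbouring RNA was made in these flies was not measured. In whole animals, a site held in a few cells and a site held weakly in many cells cannot be told apart. These lists hold no read counts, so depth is unknown. The promoter comparison is with 11162 pooled peaks at protein-coding promoters, of which 4835 are in the IDR list.

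Bab1 (Bric-a-brac 1) carries a BTB domain, through which such proteins pair, and a pipsqueak-type domain that binds DNA. It is studied for patterning the legs and antennae, forming the ovary's terminal filaments and setting the pigment of the abdomen. Long non-coding RNAs are transcripts that are not translated into a protein. Some act on chromatin, as the roX RNAs do on the male X chromosome, some hold RNA-binding proteins in the nucleus, as Hsromega does, and some are precursors of small RNAs, as flam and let7C are. Many others in the fly annotation are known by a CR number alone and have no described role. An antisense RNA is transcribed from the strand opposite to a protein-coding gene.

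The summit base and 50 bases on either side are printed for the 6 strongest members outside 1 chromosome arm, as examples of strongly enriched sites. The sequence of the fifth strongest member, lncRNA:CR43651, is not printed. The summits at flam and Hsromega are the strongest among members at lncRNAs of known function, and roX1 and roX2 were added after their values were seen. The sequences are the plus strand of the RefSeq release of dm6, 5′ to 3′, with the summit at base 51. Capitals mark any match, on either strand, to the 14 short patterns listed further down.
lncRNA:CR31044, chr3R:29214395-29214495: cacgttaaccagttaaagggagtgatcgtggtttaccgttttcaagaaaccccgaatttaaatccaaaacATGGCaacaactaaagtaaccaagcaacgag
lncRNA:CR43287, chrX:7706944-7707044: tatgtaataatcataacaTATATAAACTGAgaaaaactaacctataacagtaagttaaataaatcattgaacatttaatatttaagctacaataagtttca
lncRNA:CR44619, chrX:12751268-12751368: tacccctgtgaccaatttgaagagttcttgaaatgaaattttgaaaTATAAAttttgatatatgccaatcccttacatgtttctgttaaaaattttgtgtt
lncRNA:CR46006, chr3L:10363797-10363897: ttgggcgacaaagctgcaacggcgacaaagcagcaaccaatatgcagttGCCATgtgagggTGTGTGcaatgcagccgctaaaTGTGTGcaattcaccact
lncRNA:CR46036, chr3R:17700538-17700638: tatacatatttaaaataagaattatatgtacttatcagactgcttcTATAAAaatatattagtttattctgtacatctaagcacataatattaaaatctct
lncRNA:CR44620, chrX:13390617-13390717: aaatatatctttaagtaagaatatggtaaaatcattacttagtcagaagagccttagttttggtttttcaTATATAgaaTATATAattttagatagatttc
lncRNA:flam, chrX:21631628-21631728: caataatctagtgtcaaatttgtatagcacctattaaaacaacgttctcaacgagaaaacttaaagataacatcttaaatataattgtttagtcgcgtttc
lncRNA:Hsromega, chr3R:21296240-21296340: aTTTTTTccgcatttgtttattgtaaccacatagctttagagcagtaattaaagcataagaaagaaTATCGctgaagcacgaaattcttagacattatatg
lncRNA:roX1, chrX:3862714-3862814: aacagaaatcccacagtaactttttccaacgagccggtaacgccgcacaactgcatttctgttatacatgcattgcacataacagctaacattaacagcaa
lncRNA:roX2, chrX:11578974-11579074: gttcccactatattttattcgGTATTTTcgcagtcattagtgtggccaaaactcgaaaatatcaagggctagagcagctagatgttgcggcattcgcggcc
Among the first 6 printed, G and C made up 19.8% of the bases at CR43287 and at CR46036, 21.8% at CR44620, 27.7% at CR44619, 40.6% at CR31044 and 51.5% at CR46006. The letters TATAAA occurred at CR43287, CR44619 and CR46036, and GCCAT, on one strand or the other, at CR31044 and CR46006. The flam and roX1 windows held none of the 14 patterns.

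The 3 strongest members were close to each other in signal and stood near the top of every replicate's list. Signal is the peak caller's own value for a peak, as the authors deposited it, and is comparable only within a list; ranks (1 is the strongest) were therefore used between lists. The strongest member lay at chr3R:29214211-29214684, in an intergenic stretch 117 bp upstream of the TSS of lncRNA:CR31044 (FBgn0051044), with rank 26 and signal 3139 in the pooled list. At its summit the signal was 991 in replicate 1, 1439 in replicate 2 and 695 in replicate 3, which were ranks 28, 30 and 24 in those lists. The nearest protein-coding TSS, that of eEF1gamma, a subunit of a translation elongation factor, was 5727 bp away.

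The member at lncRNA:CR43287 (FBgn0262979) had rank 30 in the pooled list and ranks 30, 31 and 29 in replicates 1, 2 and 3. It covered chrX:7706382-7707343 in an intron of CHES-1-like, which encodes a forkhead-type factor, with its summit 781 bp upstream of the lncRNA start. The member at lncRNA:CR44619 (FBgn0265830) had rank 32 in the pooled list and ranks 42, 33 and 42 in the replicates, at chrX:12750834-12751674. Its summit lay 549 bp upstream of that TSS and inside the annotated body of lncRNA:Vinr, an RNA known from flies for a role in antiviral immunity. These sites kept nearly the same place in each replicate's list.

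The next members showed wider replicate ranks. lncRNA:CR46006 (FBgn0267668) has several start sites; a member at chr3L:10363625-10364146 had pooled rank 55 and ranks 41, 82 and 44 in replicates 1, 2 and 3. A second one, at chr3L:10332105-10332560, had pooled rank 737 and ranks 668, 793 and 752. lncRNA:CR46036 (FBgn0267703) and lncRNA:CR46035 (FBgn0267702) both start within introns of osa, which encodes a subunit of the Brahma chromatin remodelling complex. Their members had pooled ranks 124 and 823. The ranks at CR46036 were 117, 132 and 128 in replicates 1, 2 and 3, and at CR46035 they were 1846, 599 and 1405.

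Of the 20 strongest members, 13 were intergenic and 7 intronic, and 17 had their summit from 90 to 400 bp upstream of the TSS. Their pooled ranks ran from 26 to 867, and each had its summit in the 6896 strongest peaks of all 3 replicates. They also included a site 200 bp upstream of lncRNA:CR43651 (rank 59), whose window was 46.5% G and C and held the TATA box, TA repeat and CA repeat patterns searched further down, lncRNA:CR44620 (rank 168), and lncRNA:CR44339 (rank 172), whose nearest protein-coding TSS is that of Psc, a Polycomb group gene, 4169 bp away. Further members were asRNA:CR45999 (rank 359), lncRNA:CR44868 in an intron of beat-Ib (rank 430), lncRNA:CR45541 1692 bp from the TSS of the hexokinase gene Hex-A (rank 508), asRNA:CR45281 near Alp6 (rank 550) and asRNA:CR44512 in an intron of Zw, the glucose-6-phosphate dehydrogenase gene (rank 637). The remaining ones were lncRNA:CR43626 (rank 716), lncRNA:CR45595 (rank 739), lncRNA:CR34335 in an intron of DIP-alpha (rank 745), lncRNA:CR45808 in an intron of the kinase gene Hipk (rank 806) and lncRNA:CR44651 (rank 867). The widest spread of replicate ranks among the 20 was at CR43626, with 1190, 358 and 4223 in replicates 1, 2 and 3.

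**Figure D1:**
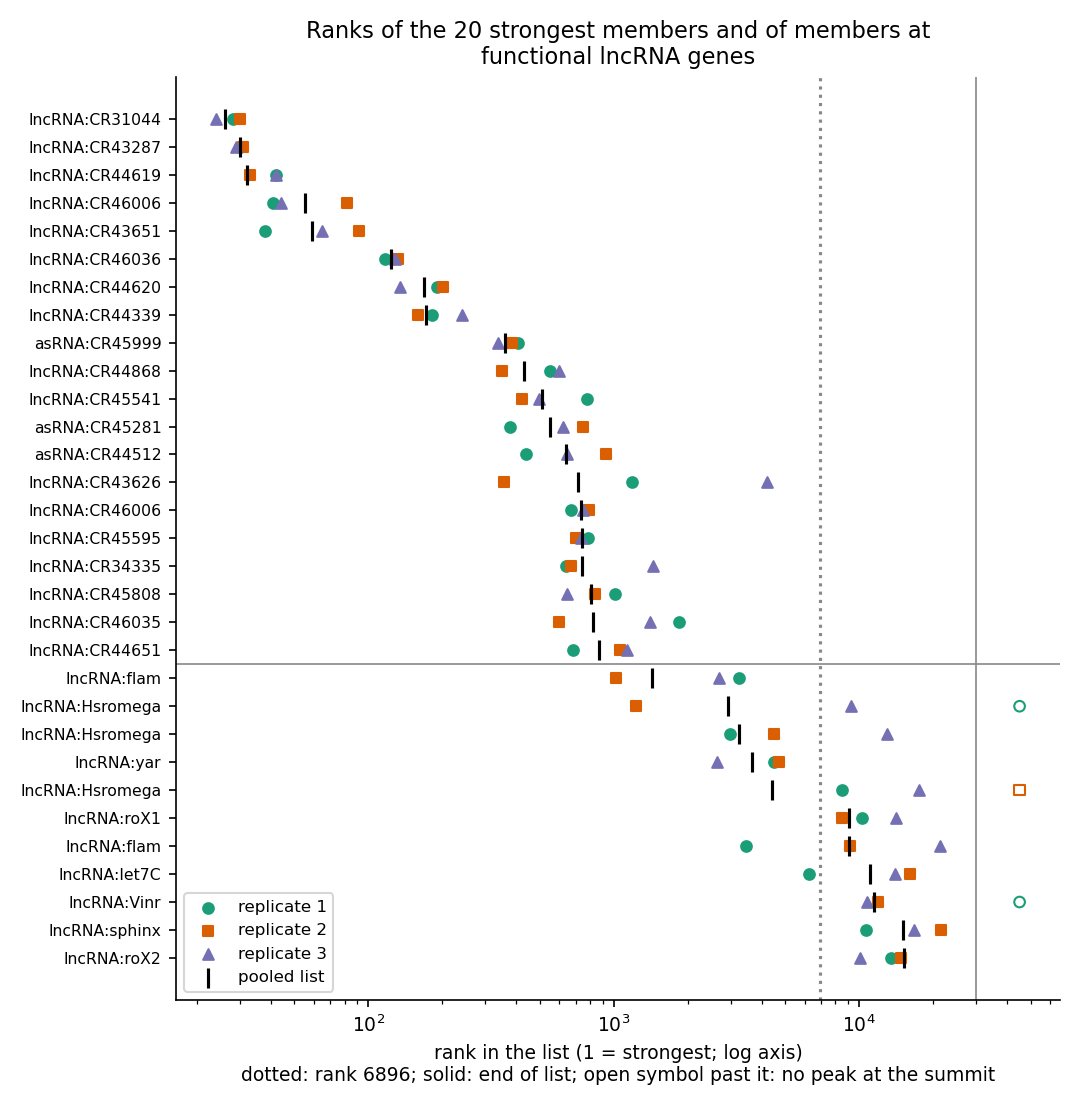
Rank of each member (log axis, 1 is the strongest) in the pooled list and in each of 3 replicates, for the 20 strongest members and for the members at lncRNAs of known function. All symbols of the 20 strongest lie left of rank 6896, and those of roX1, Vinr, sphinx and roX2 lie right of it.

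Of 24 listed names of lncRNAs of known function, 17 were in the annotation and 8 of these carried a member, 3 of them in the IDR list. Among all lncRNA and asRNA genes with a TSS over 1000 bp from any protein-coding TSS, 18.2% carried a member and 4.63% one in the IDR list. The TSS of sphinx, among the 8, lay 867 bp from a coding TSS, so sphinx is not one of those genes. The 11 members nearest to these 8 genes had pooled ranks from 1434 to 15257 with a median of 9059, against a median of 16281 over all members, and 5 of the 11 were in the IDR list, where 23.0% of all pooled peaks are. Of these 5, 3 lay at Hsromega, a pair of them in the same interval, so they are not separate sites. The list was chosen with results of these data known, so these counts are a description. The snoRNA host genes named Uhg lack both prefixes and fall outside the rule. The members at flam, Hsromega and yar were in the IDR list, and those nearest roX1, roX2, let7C, Vinr and sphinx were not.

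The lncRNA flam, the precursor of piRNAs that silence retrotransposons in the somatic cells around the germ line, had a member 213 bp upstream of its TSS, at chrX:21631581-21631834. Its signal was 102, 306 and 92.2 in replicates 1, 2 and 3, and its ranks there were 3223, 1023 and 2684, against 1434 in the pooled list. A weaker member at an inner start site, chrX:21632815-21633238, had pooled rank 9078 and replicate ranks 3452, 9173 and 21394. By rank, replicate 2 placed the upstream site highest and replicate 1 the inner one.

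Hsromega, the heat-inducible RNA of the nuclear omega speckles, was the one gene with 3 members in the IDR list, with pooled ranks 2915, 3246 and 4422. Replicates disagreed on them. The summit of rank 2915 was in no peak of replicate 1 and had ranks 1228 and 9290 in replicates 2 and 3. That of rank 3246 had ranks 2965, 4509 and 12984 in replicates 1, 2 and 3, and that of rank 4422 had ranks 8481 and 17448 in replicates 1 and 3 and no peak in replicate 2. The stronger pair shares the interval chr3R:21296137-21298516, so these are summits within 1 enriched stretch around the start of the gene.

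The RNA yar is transcribed between yellow and the achaete-scute genes and is known for an effect on sleep. Its member, at chrX:361515-361700 in an intron of CG32816, had its summit 769 bp upstream of the yar start, and y (yellow), the nearest protein-coding TSS, was 5121 bp away. Signal there was 84.4, 138 and 93.1 in replicates 1, 2 and 3, with ranks 4496, 4698 and 2628, all within the strongest 6896.

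The roX RNAs are components of the dosage compensation complex, which acts in males; the flies here were females. At the roX1 start, 67 bp upstream of the TSS, the signal was 45.6, 90.7 and 32.3 in replicates 1, 2 and 3, the ranks there were 10226, 8467 and 14102, and the pooled rank was 9059. At the roX2 start, 41 bp upstream, the signal was 36.2, 57.1 and 41.6, the ranks were 13416, 14796 and 10058, and the pooled rank was 15257. Both summits lay inside a peak of the full list of every replicate, and in none of the 3 lists was either among the 6896 strongest. Counting the gene body and 1000 bp on either side, roX2 also had 2 peaks of the IDR list, the stronger at rank 2546, which the rule left out.

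The other known RNAs had members outside the IDR list. The let-7 microRNA precursor let7C had a member 12 bp upstream of its start with pooled rank 11017 and ranks 6263, 16099 and 13944 in replicates 1, 2 and 3. Vinr had pooled rank 11537 upstream of its own start, in an untranslated exon of CG4004, with no peak there in replicate 1. The young gene sphinx on chromosome 4, known for an effect on male courtship, had pooled rank 15122 and ranks 10680, 21521 and 16686. Counting the gene body and 1000 bp on either side, let7C had 2 IDR peaks, the stronger at rank 4301. In the same count Vinr had 2, the stronger at rank 32, which is the member at lncRNA:CR44619, and sphinx had none. No member lay at the starts of bxd, iab8, cherub, acal, CRG, noe, TS1, TS2 or TS3. Of these, acal had 2 IDR peaks in its body or within 1000 bp of it, the stronger at rank 564, and bxd, iab8, cherub, TS1, TS2 and TS3 had no pooled peak there.

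Most lncRNA genes that stand apart from coding genes carried no member. Of 2447 annotated lncRNA: and asRNA: genes, 1729 had a TSS over 1000 bp from any protein-coding TSS, and 80 of these (4.63%, exact Clopper-Pearson 95% interval 3.69 to 5.73) carried a member of the IDR list. The share of all genes with an IDR peak in the promoter window was 35.1%, and that of protein-coding genes was 40.9% (5702 of 13945). Here and in the pooled list these shares rest on unlike peaks. For the 1729 genes only members counted, which lie over 1000 bp from any coding TSS. For all genes and coding genes any peak in the window counted. In the pooled list, 314 of the 1729 (18.2%, interval 16.4 to 20.1) carried a member, against 55.8% of all genes and 61.8% of protein-coding genes. By symbol, 262 of 1518 lncRNA: genes (17.3%, interval 15.4 to 19.3) and 52 of 211 asRNA: genes (24.6%, interval 19.0 to 31.0) did so. These intervals, and all others of shares here, cover counting error alone, since genes and peaks that lie near each other are not independent.

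Members were spread over the rank range while coding promoters filled its top. Of the 443 members, 87 (19.6%) were in the IDR list, where 23.0% of all pooled peaks are. Members made up 1.26% of the IDR peaks (interval 1.01 to 1.55), 1.36% of the peaks from there to rank 15000, 1.85% from there to rank 22500 and 1.43% of the rest. Protein-coding promoter peaks made up 70.1%, 39.9%, 23.3% and 17.9% of the same ranges. The median pooled rank was 16281 for members and 8245.5 for coding promoter peaks.

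**Figure D2:**
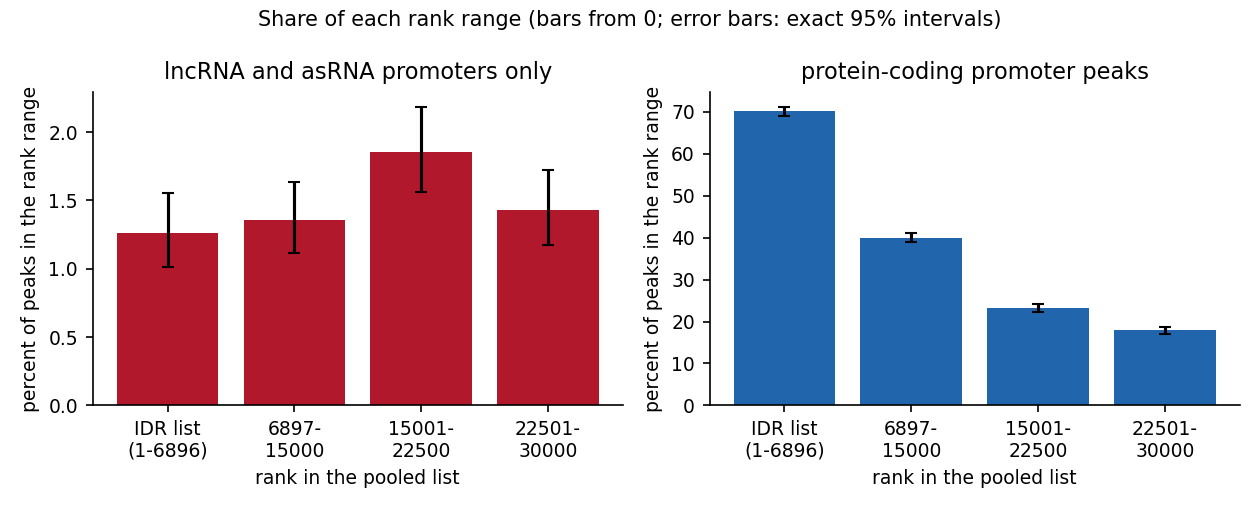
Percent of the peaks of each rank range of the pooled list that are members (left) or protein-coding promoter peaks (right), with exact 95% intervals. The member bars stay between 1.26% and 1.85%, and the coding bars step down from 70.1% to 17.9%; the vertical scales differ.

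Each replicate gave the same kind of result. The pooled list was called on these same 3 replicates. A class that ranks lower in it will tend to be found less often among their strongest peaks. The shares below are therefore no independent check of the pooled ranks. A member counted as found when its pooled summit lay inside a peak of the replicate's list; 2 members can match the same wide peak. Among each replicate's 6896 strongest peaks, 88, 97 and 87 members (19.9%, 21.9% and 19.6%) were found in replicates 1, 2 and 3, a mean of 20.5% ± 1.24 (SD, n = 3). For coding promoter peaks the shares were 43.0%, 45.8% and 43.2%. The difference, members minus coding promoters, was −23.5 percentage points ± 0.391 (SD, n = 3) and had the same sign in all 3 replicates. In the exact two-sided sign-flip permutation test over replicates, p was 0.25, the smallest that 3 replicates allow, so the design cannot reach 0.05.

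Of the members, 50 (11.3%) were found in the strongest 6896 of all 3 replicates, against 13.4% of all pooled peaks, and all 50 are in the IDR list. In the full lists of 30000, 301, 354 and 303 members were found in replicates 1, 2 and 3, and 179 (40.4%) were found in all 3, against 44.2% of all pooled peaks. Another 172 members were in 2 of the full lists, 77 in 1 and 15 in none. Replicate 2 held the most members in both kinds of list.

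**Figure D3:**
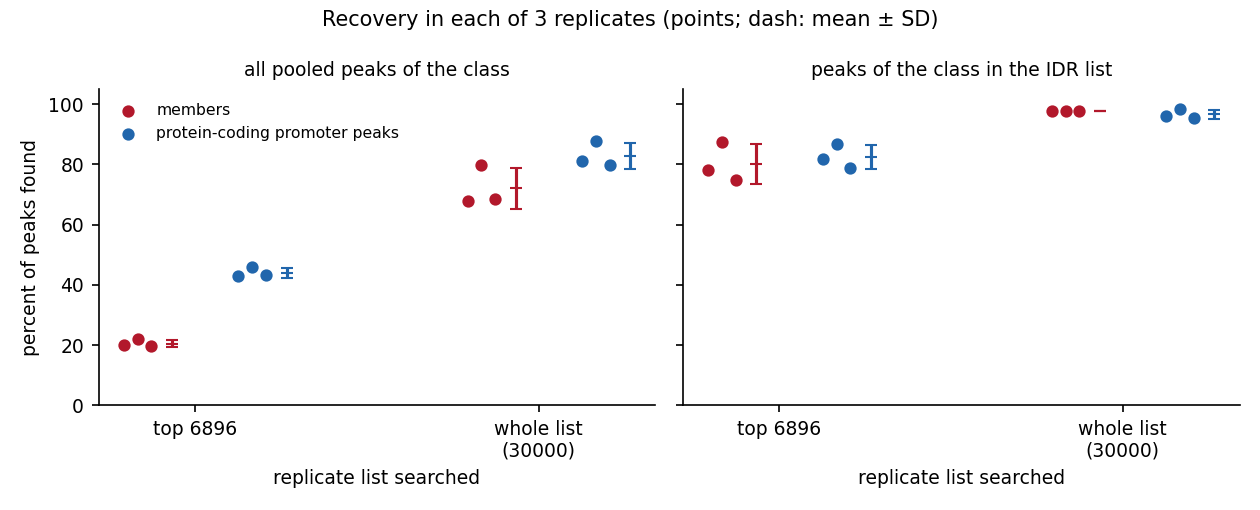
Percent of peaks found in each of 3 replicates (points), with mean ± SD, for members and protein-coding promoter peaks. Among all pooled peaks (left) members lie below coding promoter peaks in the strongest 6896 (means 20.5% and 44.0%), and among IDR peaks (right) the points of both classes overlap.

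Rank, taken from the same lists, gave a matching picture and is no independent check either. Peaks not found in a replicate were set at the end of its list. The median member then stood at 63.1%, 52.2% and 58.2% of the way down the lists of replicates 1, 2 and 3, and the median coding promoter peak at 28.8%, 25.8% and 28.5%. The mean difference was 30.2 percentage points ± 3.96 (SD, n = 3), with an exact sign-flip permutation p of 0.25. It was 17.7 points ± 1.87 when peaks not found in a replicate were left out of its median instead. Within the IDR list the median member stood at 11.4%, 11.1% and 12.5% in replicates 1, 2 and 3, and the median coding promoter peak at 11.5%, 11.1% and 11.7%, a difference of 0.25 points ± 0.51 (SD, n = 3; exact sign-flip permutation p = 0.75) whose sign differed between replicates. Of the IDR members, 57.5% (interval 46.4 to 68.0) were in the strongest 6896 of all 3 replicates, and of the coding IDR peaks 59.3%. Both classes are held to the strongest 6896 pooled peaks there by the list itself.

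When the same rule was run on each replicate's own peaks rather than on pooled ones, it gave 435, 460 and 430 members in replicates 1, 2 and 3, or 441.7 ± 16.1 (SD, n = 3). In the strongest 6896 of each it gave 84, 85 and 84. Where a member was found, its summit lay at a median of 35, 19 and 44 bp from that of replicates 1, 2 and 3. For IDR members these distances were 31, 8 and 34 bp, and 77.6%, 88.2% and 71.8% of those found lay within 50 bp of the pooled summit. Of coding IDR peaks, 78.3%, 83.8% and 75.1% did so in replicates 1, 2 and 3.

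Members lay farther from the nearest start site in the window than coding promoter peaks. The median summit was 357 bp upstream of the lncRNA or asRNA TSS, and that of coding promoter peaks 103 bp upstream. In the IDR list the medians were 232 bp for members and 54 bp for coding promoters. Within 250 bp of the TSS lay 50.6% of the IDR members (44 of 87), against 84.6% of the coding IDR peaks. In the 3 weaker rank ranges the member shares were 44.5%, 33.8% and 33.6%, and the coding shares 67.8%, 51.1% and 40.5%. The band of 250 bp is 351 of the 1101 positions of the window, or 31.9%, which an even spread over the window would give. Accuracy of the annotated start sites, and the part of their number in the difference between classes, were not tested.

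**Figure D4:**
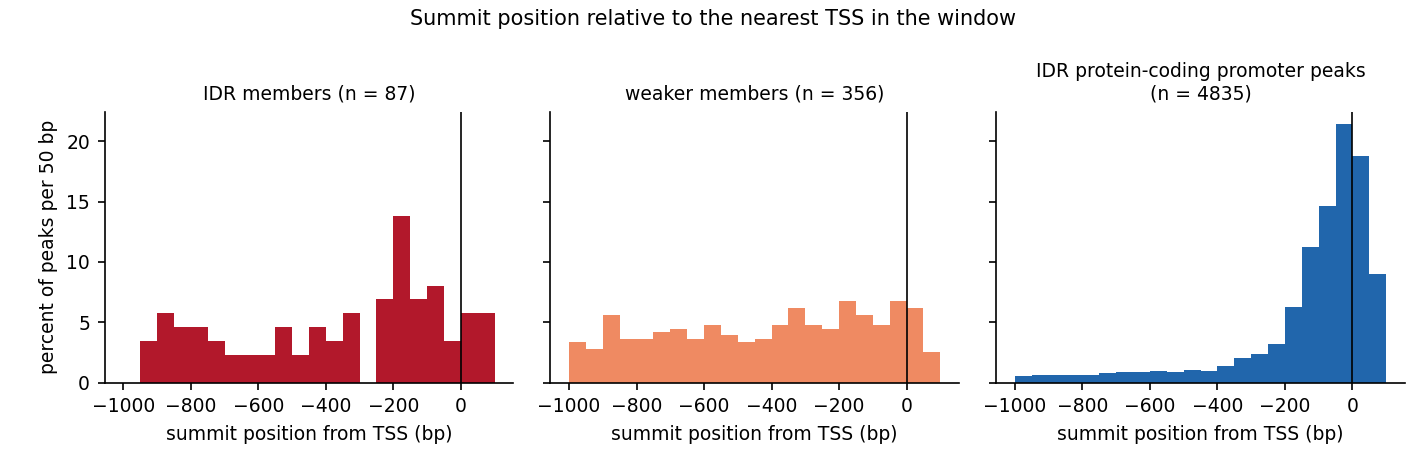
Summit position relative to the nearest TSS in the window, as percent of peaks per 50 bp, for IDR members, weaker members and IDR peaks at protein-coding promoters. IDR members gather between 250 bp upstream and the TSS with others spread to 939 bp upstream, weaker members are spread over the window, and coding peaks crowd at the TSS.

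By surroundings, 243 members (54.9%) were intergenic, 145 (32.7%) lay in introns of protein-coding genes, 32 (7.22%) in untranslated exons and 23 (5.19%) in coding exons. Of 1829 lncRNA and asRNA start sites over 1000 bp from any coding TSS, 67.1% are intergenic and 25.2% intronic. IDR members were 72.4% intergenic (63 of 87, interval 61.8 to 81.5), with 23 in introns, 1 in an untranslated exon and none in a coding exon (0 of 87 allows up to 4.15%). Inside a coding gene, 151 members belonged to an RNA on the opposite strand and 46 to one on the same strand. Another 3 lay in coding genes of both strands. Of the 1829 start sites, 432 were inside a coding gene of the opposite strand, 162 of the same strand and 8 of both. Most of either set inside a coding gene were thus on the opposite strand. Of members at asRNA: genes 71.6% (68 of 95) lay inside a coding gene, and of those at lncRNA: genes 37.9% (132 of 348). In the IDR list were 11 of the 95 asRNA: members and 76 of the 348 lncRNA: members.

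Some host genes held several members. Hipk held 4, at lncRNA:CR45808 and lncRNA:CR46249, with the strongest at rank 806. Members in introns of kis, a chromatin remodeller of the trithorax group, numbered 3 at 3 lncRNA genes, with the strongest at rank 5396. The genes sau, Gp150 and RhoGEF64C also held 3 each, with the strongest at ranks 8727, 13915 and 16429. The genes osa, beat-Ib and Prps, which encodes phosphoribosyl pyrophosphate synthetase, each held 2 members, all in the IDR list. Over genes, 272 lncRNA or asRNA genes were nearest to 1 member, 69 to 2 and 11 to 3. In 35 of the 80 genes with several members the summits spanned at most 250 bp, and 113 of the 443 members overlapped another one, so members at 1 gene are often parts of 1 enriched stretch. The interval was 424 bp wide in 366 members.

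A start of another kind of non-coding gene lay within 1000 bp of 11 members. The microRNA genes mir-282 (lncRNA:CR43626, ranks 716 and 11923), mir-8 (lncRNA:CR43650, rank 1934), mir-14 (lncRNA:CR43651, rank 3352) and mir-375 (lncRNA:CR45345, rank 24089) were among them. The rule placed these peaks by the lncRNA or asRNA start alone, and a link to either gene was not tested. The stronger member at lncRNA:CR43651 (rank 59) had no start of another kind of non-coding gene within 1000 bp.

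Lists of genes from the developmental pathways in which Bab1 is studied were set against all coding genes. Of 51 annotated genes in the 5 lists, 6 (11.8%, interval 4.44 to 23.9) were the host of, or the coding gene nearest to, a member, against 2.71% of all protein-coding genes (378 of 13945). No member had a Hox gene (0 of 8 genes) or a gene of the BTB and pipsqueak list (0 of 11 annotated) as host or nearest coding gene. These counts allow up to 36.9% and 28.5%, so neither is apart from the 2.71% of all coding genes. The nearest coding gene can be many kilobases away. In the leg and antenna list, which holds 18 genes, danr was linked in this way to lncRNA:CR46098 (rank 18435) and btd to lncRNA:CR44016 (rank 26406). The ecdysone list of 9 genes had 5 members linked to 3 genes. They were 2 at lncRNA:CR45938 in an intron of ftz-f1 (ranks 12700 and 19732), and 1 at lncRNA:CR43904 in an intron of the receptor gene EcR (rank 15142). Eip75B was linked to 1 each at lncRNA:CR45393 and lncRNA:CR45922 (ranks 19281 and 27777). The member at CR45393 was intergenic, 14139 bp from the nearest Eip75B TSS. In the ovary niche list, tj, a factor of somatic gonad cells, was the coding gene nearest to the intergenic member at lncRNA:CR43839 (rank 11020). Its TSS was 8147 bp away. None of these 8 was in the IDR list, where 23.0% of pooled peaks are. With 0 of 8 a share of up to 36.9% is allowed, which includes 23.0%.

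By chromosome, eligible genes with a member made up 22.8% on X (45 of 197), 13.7% on 2L (62 of 452), 23.8% on 2R (59 of 248), 21.5% on 3L (88 of 410), 13.5% on 3R (55 of 408) and 35.7% on chromosome 4 (5 of 14, interval 12.8 to 64.9). The intervals of X, 2R and 3L, at 17.2 to 29.3, 18.6 to 29.6 and 17.6 to 25.8, were set against those of 2L and 3R, at 10.7 to 17.2 and 10.3 to 17.2. Those of 2R and 3L lay above both, and that of X met them at 17.2. On X lay 14.2% of members and 20.1% of all pooled peaks.

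The windows printed above, taken at every summit, were searched on both strands for 14 patterns. They were the DRE core ATCGAT, the BEAF-32 core CGATA, the E-box (CACGTG), the GAGA factor pattern (GAGAG), a CA repeat CACACA, the TATA box TATAAA, a TA repeat TATATA, an initiator TCAGTT, the core promoter patterns Ohler 1 (GTCACAC), Ohler 6 (GTATTTT) and Ohler 7 (CAGCNCT), Zelda CAGGTA, Pho GCCAT and the run AAAAAA. Some overlap, as the DRE core with the BEAF-32 site and TATAAA with TATATA. A match is a run of letters and shows no binding by the factor it is named for. Any of them was found in 72.5% of all members and in 80.5% of IDR members, against 80.3% of coding IDR peaks and 75.3% of windows 500 bp to either side of IDR members.

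CGATA was found at 14.9% of IDR members (13 of 87, interval 8.20 to 24.2), 27.5% of coding IDR peaks (interval 26.3 to 28.8), 23.0% of all IDR peaks and 13.2% of the side windows. The DRE core ATCGAT was found at 6.90% of IDR members, 13.4% of coding IDR peaks and 4.02% of side windows. GTCACAC was in none of the 87 (up to 4.15%), in 5.17% of coding IDR peaks (interval 4.56 to 5.83) and in 3.74% of all IDR peaks. GCCAT was found at 23.0% (20 of 87, interval 14.6 to 33.2), against 16.4% of coding IDR peaks and 9.20% of side windows (interval 5.35 to 14.5). Within the IDR list, for CGATA and GTCACAC the intervals of members and coding IDR peaks are apart, for GCCAT those of members and side windows, and for the other patterns named here they overlap. The GCCAT contrast with the side windows is not seen over all 443 members, where it was found at 19.2% (interval 15.6 to 23.2) against 16.9% of their side windows (interval 14.5 to 19.6) and 16.7% of all coding promoter peaks. Over all members CGATA was found at 13.8% (interval 10.7 to 17.3), against 21.9% of coding promoter peaks. ATCGAT was at 4.97% of members and 9.60% of coding promoter peaks, GTCACAC at 0.45% and 3.60%, and GTATTTT at 2.48% and 5.69%. For these 3 and CGATA the intervals of members and coding peaks are apart. Over all pooled peaks CGATA was at 16.4%, ATCGAT at 5.30% and GTATTTT at 4.31%, each inside the interval of members. Of all pooled peaks, 1.87% held GTCACAC, above the interval of members (0.055 to 1.62). The run AAAAAA was at 20.8% of members and 20.1% of coding promoter peaks, GAGAG at 13.1% of both, TATAAA at 12.9% and 14.0%, and CACACA at 10.6% and 8.56%. The TA repeat, the initiator, Ohler 7, the E-box and Zelda were at 6.55%, 6.55%, 4.97%, 1.81% and 0.90% of members. GCCAT was also in 18.5% of windows at 1434 start sites of such genes without a pooled peak.

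**Figure D5:**
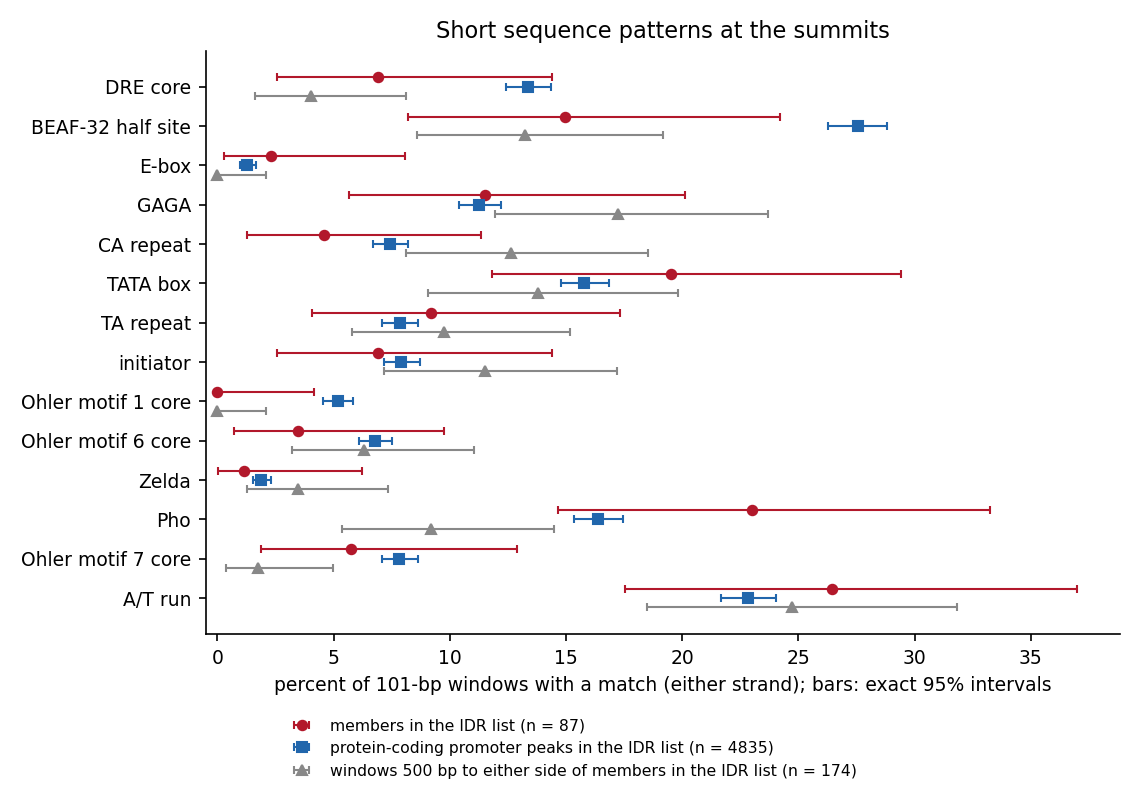
Percent of summit windows (50 bp on either side) with a match on either strand, with exact 95% intervals, for IDR members (n = 87), IDR peaks at protein-coding promoters (n = 4835) and windows 500 bp to either side of the IDR members (n = 174). The member intervals are wide; CGATA (BEAF-32) and Ohler motif 1 lie below coding peaks and GCCAT (Pho) above the side windows, which over all 443 members it does not exceed beyond its interval.

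Base composition moved with strength. G and C made up a median of 36.6% of the window at IDR members and 39.6% at coding IDR peaks, and 40.6% in the side windows of IDR members. Over all IDR peaks the median was 38.6%, and over all pooled peaks 41.6%, so strong peaks in general had less G and C. Under 30% lay 31.0% of IDR members (27 of 87) and 21.8% of coding IDR peaks, shares for which no interval was computed. Over all 443 members the median was 41.6%, as it was over all coding promoter peaks. The 20 strongest included 10 under 30%. The part of base composition in the pattern shares was not tested.

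The members closest to it were asRNA:CR44599, 1007 bp from the TSS of Ing5 (rank 9125), lncRNA:CR45400, 1008 bp from that of Pdk1 (rank 5193), and asRNA:CR45139, 1010 bp from that of uex (rank 11689). Left out just inside it were asRNA:CR43460, 995 bp from rdx (rank 26375), lncRNA:CR44985, 986 bp from Ncoa6 (rank 3958), and lncRNA:CR45039, 986 bp from E(spl)mbeta-HLH (rank 21745). In all, 530 pooled peaks at lncRNA or asRNA promoters had a coding TSS within 1000 bp and were left out. The median distance from a member to the nearest coding TSS was 2906 bp.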

How the data were processed

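The files were peak lists from ChIP-seq of 3 replicates of Bab1-GFP females, 1 pooled list and 1 IDR list, on dm6 per the labels. Each list was called against 1 control library, per the file headers. The signal values deposited by the authors come from the peak caller and are set within each list. The deposited −log10 q values have many ties and were left aside. The summit offsets, another deposited value, gave each summit. Which aligner, peak caller and IDR threshold the authors used is "not given in the sources used here".

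Start sites were those of BDGP6.54 in Ensembl release 115, without transposons, duplicate microRNA entries or the Y chromosome (the last 2 left out after the data were seen, with no effect on the 443 members), and sequence from RefSeq's release of the same assembly. RefSeq's own coding TSSs removed no member. Coordinates are 1-based. Python 3.11.15, pandas 2.3.3, numpy 2.4.6, scipy 1.17.1 and matplotlib 3.10.9 were used. Differences between classes were tested over replicates by an exact sign-flip permutation test, and the code was tested on simulated data. Intervals given for shares are exact Clopper-Pearson 95% intervals. The design named the IDR list for pattern and gene shares; the gene share was kept on it, and patterns were run on the 443 members and on the 87 in the IDR list.

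The members and lists were chosen with earlier results of these data known. Rank ranges, positions, surroundings, base composition, hosts and the added alternatives were chosen after the data were seen, and carry no test except the comparisons within the IDR list. Named genes are the 20 strongest members, the 3 members and 3 left-out peaks nearest the distance limit, genes of the lists, and genes with several members, of which those with the most or the strongest are given; hosts and microRNA neighbours were chosen after their values were seen. The alternatives changed the promoter window, the coding distance, the symbols, the peak list, the matching rule, the replicates and the pattern window.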

Additional observations from a re-analysis of the deposited data

How the results depend on the processing

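The number of members was 234 with a promoter of 250 bp on either side of the TSS, 287 with no coding TSS within 2000 bp, 95 with asRNA: symbols alone, 47 in the strongest 3448 peaks of the IDR list and 87 in the IDR list, against 443. The share of members in the strongest peaks of all 3 replicates, 11.3%, was 40.4% with whole replicate lists, 7.22% with replicate lists of 3448 peaks, 7.45% with a reciprocal overlap of at least 50% and 57.5% for IDR members; leaving out 1 replicate gave 13.5% to 14.9%. The share with any pattern, 72.5%, was 91.9% in windows reaching 100 bp to either side of the summit, 47.9% in windows of 51 bp and 80.5% in IDR members. The share of genes with a member, 4.63% in the IDR list, was 18.2% in the pooled list and 2.66% with peaks in the strongest of all 3 replicates. Most of these follow from the construction of the alternative, which takes fewer or more peaks or longer windows.

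The recovery difference stayed negative, from −23.7 to −2.36 percentage points, and the strength difference positive, from 0.25 to 32.0 points, as means over replicates; the strength difference was 17.7 points with peaks not found left out. Within the IDR list both were at their smallest, and their sign did not hold in every replicate. Members were found more often in replicate 2 there (87.4% against 86.8% of coding peaks) and stood slightly higher in the list of replicate 1 (11.4% against 11.5%). No replicate comparison can pass the threshold of 0.05 with 3 replicates, so these directions are all that was compared. Each difference was taken within a replicate, so the classes were paired by replicate. No pairing of samples between groups was possible, because there is 1 group. Depth is unknown from the lists, no error-rate threshold was applied to the weak end of the pooled list, and the 87 IDR members leave wide intervals.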
